A study of Mus musculus with 12 samples.

Results

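The mRNAs of 10 amino acid transporters of hepatocytes were followed in mouse liver during calorie restriction (CR). The members were listed by gene symbol, with earlier results of these data known. Counts of members set beside shares of all genes are therefore descriptions, not support from an independent list. All 10 were found among the 24537 genes of the expression table: Slc7a2, Slc3a1, Slc3a2, Slc38a2, Slc38a3, Slc38a4, Slc43a1, Slc16a10, Slc6a13 and Slc25a47. Liver was taken from male C57Bl/6J mice that were 6 weeks old at the start and housed individually. Con mice ate ad libitum, and CR mice received 30% less food than they did, for 25 or 30 days, with 3 mice for each diet and day. The comparison at day 25 and at day 30 asks how CR changed the liver on either side of the interval in which the study looked for a slowing of hepatic protein synthesis. CR mice were fed once a day at noon and received a fortified form of the control chow, so that restriction, meal pattern and formulation cannot be told apart. All mice drank heavy water during the last days, and the hour of tissue collection after feeding is not given in the sources used here. No group carried a transgene or a deletion.

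Hepatocytes take amino acids from portal blood for protein synthesis, gluconeogenesis, urea synthesis and export. Sodium-coupled carriers such as those of the Slc38 family can concentrate amino acids in the cell, whereas facilitative carriers such as Slc43a1 and Slc16a10 let them move down their gradient in either direction. Slc3a1 and Slc3a2 carry nothing themselves. They are heavy chains that bring a light chain of the Slc7 family to the plasma membrane.

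Expression was measured by RNA-Seq as FPKM, the number of fragments per kilobase of exon scaled to the reads mapped in the library, a scale on which genes of different length can be compared. Each library held 15748725 to 23345538 reads, as recovered from the steps between low values. All 8 hepatocyte markers found in the table, among them albumin, were abundant in every library, at 138 to 51723 FPKM. The tissue was bulk liver, in which fewer cells of a type and less RNA per cell cannot be told apart. In what follows, a gene is said to rise or fall where the Benjamini-Hochberg adjusted p of limma, taken over all 10593 tested genes, was under 0.1. Of the 8 hepatocyte markers, 0 rose and 0 fell at day 25. At day 30, 1 rose (albumin, by 0.64, SE 0.136, limma adjusted p = 0.00791) and 1 fell (Apob, by 0.44, SE 0.169, limma adjusted p = 0.0943). There 8.33% of all tested genes rose and 16.4% fell. Hepatocyte markers summed to 60469 to 67481 FPKM in Con and 65415 to 73164 in CR mice at day 25. At day 30 the sums were 51222 to 61857 and 69182 to 81104, without overlap. Albumin was the largest part of the sum, with means at day 30 of 29732 FPKM in Con and 46413 in CR mice (ratio 1.56). The ratios of the other markers ran from 0.751 (Apob) to 1.13 (Apoa2), so the sum does not show a rise of the markers as a group. Of 10 Kupffer cell markers, 7 fell at day 25, where 9.34% of all tested genes fell, and at day 30 0 fell and 1 rose, where 16.4% and 8.33% did. No marker passed the test of a difference between the days (limma adjusted p = 1.00 for all 10). Their summed levels were 73.8 to 122 FPKM in Con and 47.7 to 56.9 in CR mice at day 25, and 64.2 to 94.8 and 61.2 to 86.0 at day 30. Markers of stellate cells summed to 53.4 to 62.2 FPKM in Con and 64.6 to 70.1 in CR mice at day 25, and to 49.0 to 60.8 and 67.8 to 85.3 at day 30. Endothelial markers summed to 37.2 to 55.2 and 46.8 to 56.7 FPKM at day 25, and to 35.3 to 39.4 and 47.0 to 52.7 at day 30. The part of other cell types in the results below was not tested.

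In Con mice the 10 transporters covered a wide range of levels. Slc38a3 was the most abundant with a mean of 467 FPKM over 6 mice, followed by Slc38a4 at 346, Slc25a47 at 264, Slc7a2 at 165 and Slc6a13 at 79.1 FPKM. Slc38a2 stood at 32.9, Slc16a10 at 19.4, Slc3a1 at 16.5, Slc3a2 at 11.0 and Slc43a1 at 2.69 FPKM. Within each Con mouse Slc38a3 was above Slc38a4, although their ranges over mice overlapped. Ranges also overlapped for 3 other pairs of neighbours, whose order changed between mice: Slc38a4 was above Slc25a47 in 4 of 6 Con mice, Slc16a10 above Slc3a1 in 4 of 6 and Slc3a1 above Slc3a2 in 5 of 6. The other neighbours did not overlap. All 10 members passed the filter of at least 1 FPKM in at least 3 libraries. Averaged over all 12 libraries, Slc38a3 lay at the 99.1 percentile of the 10593 tested genes and Slc43a1 at the 36.9 percentile.

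**Figure D1:**
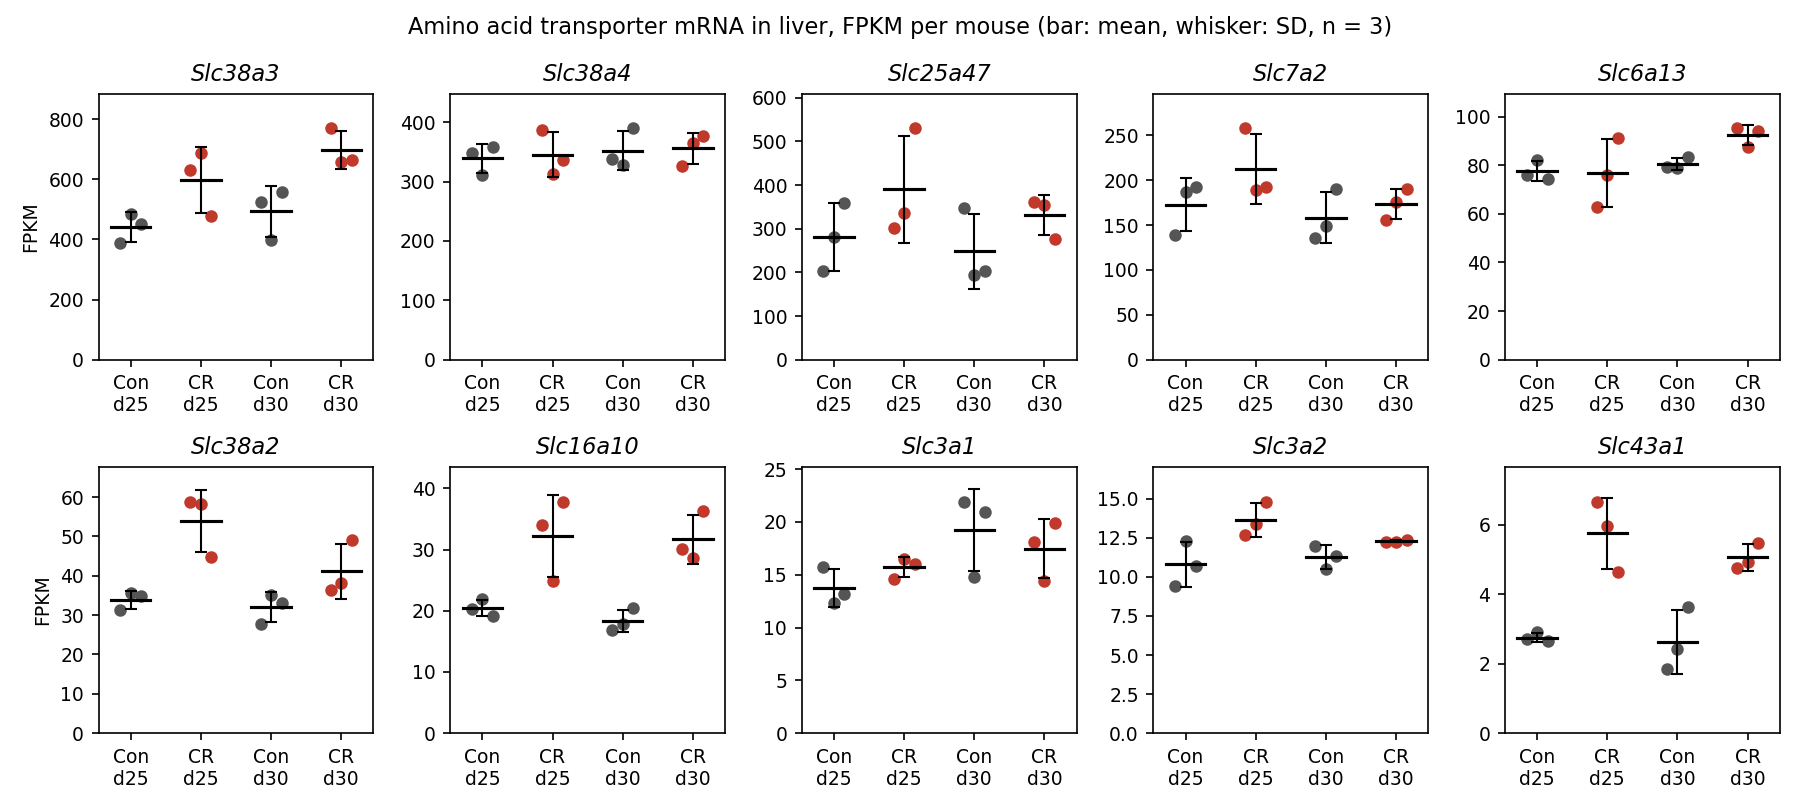
FPKM of the 10 transporters in each mouse, with 1 panel per gene ordered by level and every vertical axis starting at 0 (grey points, Con; red points, CR; bar, mean; whisker, SD; 3 mice per group). The 6 CR mice lie above all 6 Con mice for Slc43a1, Slc16a10 and Slc38a2, and the diets overlap for Slc38a4.

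The members that passed the test were higher in CR mice on both days, with ratios of means of up to 2.09. At day 25, 4 of 10 members rose (Slc43a1, Slc38a2, Slc16a10 and Slc3a2) and 0 fell, where 5.6% of all tested genes rose and 9.34% fell. At day 30, 3 of 10 rose (Slc43a1, Slc16a10 and Slc38a3) and 0 fell, against 8.33% and 16.4% of all genes. With the 6 CR mice set against the 6 Con mice and day as a covariate, 6 of 10 rose (Slc38a2, Slc3a2 and Slc25a47 in addition to the 3 of day 30) and 0 fell, against 14.5% and 26.1%. The median log2 fold change of the members was 0.37 at day 25, 0.27 at day 30 and 0.34 over both days, where the median of all tested genes was -0.04, -0.07 and -0.05. The direction of the background depends on scaling: over both days 1536 genes rose and 2768 fell as deposited, and 2166 rose and 2076 fell when libraries were scaled by the median of ratios, which raised the share of all genes that rose to 20.4%.

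The study's own thresholds added a log2 fold change of 1 or more in either direction. With limma, 0 of 10 members met both thresholds at day 25, at day 30 or over both days, while 5, 4 and 6 members had an unadjusted p under 0.05, as did 24.9%, 31.7% and 42.9% of all tested genes. Of all tested genes, 1.48% met both at day 25, 2.21% at day 30 and 1.66% over both days. Voom on the recovered reads, which adds no FPKM pseudocount, placed 1 member (Slc43a1) past both thresholds at day 25 and over both days and 0 at day 30.

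**Figure D2:**
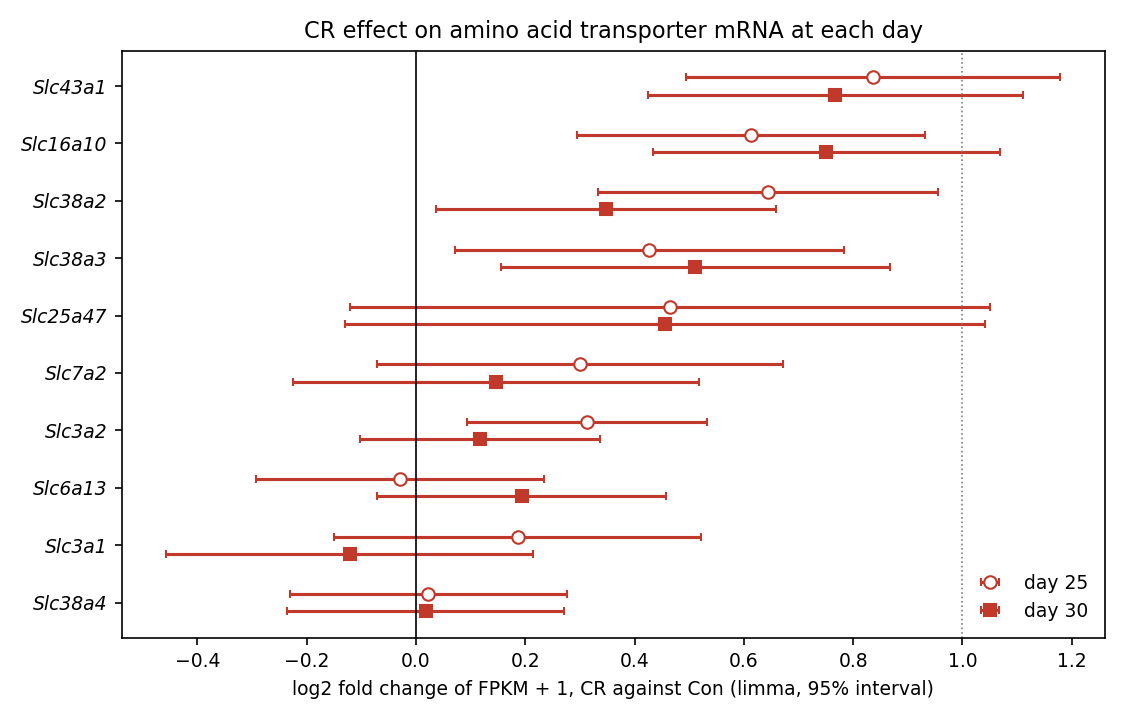
Log2 fold change of FPKM + 1 in CR against Con mice at day 25 (open circles) and day 30 (filled squares), with 95% intervals from limma and 3 mice per group. Intervals of Slc43a1, Slc16a10, Slc38a2 and Slc38a3 lie above 0 on both days, and no point reaches the dotted line at a log2 fold change of 1.

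Of the members that rose, Slc43a1, Slc16a10 and Slc38a2 separated all CR mice from all Con mice. Their promoters are shown because they moved together, beside that of Slc38a4, a relative of Slc38a2 on the same chromosome whose levels overlapped between the diets. Each sequence is the 250 bases before the transcription start, 5′ to 3′ on the gene's strand, from RefSeq with build GRCm38.p6, where 8 of the 10 members had an entry (Slc7a2 and Slc38a3 had none). Capitals mark the E-box CACGTG, the only match found among the 8 promoters.
Slc43a1, chr2:84840073-84840322, plus strand: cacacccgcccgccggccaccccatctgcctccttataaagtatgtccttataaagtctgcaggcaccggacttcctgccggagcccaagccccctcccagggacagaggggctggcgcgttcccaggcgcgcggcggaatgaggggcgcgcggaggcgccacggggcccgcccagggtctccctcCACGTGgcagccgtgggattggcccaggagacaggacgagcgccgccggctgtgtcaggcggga
Slc16a10, chr10:40142255-40142504, minus strand: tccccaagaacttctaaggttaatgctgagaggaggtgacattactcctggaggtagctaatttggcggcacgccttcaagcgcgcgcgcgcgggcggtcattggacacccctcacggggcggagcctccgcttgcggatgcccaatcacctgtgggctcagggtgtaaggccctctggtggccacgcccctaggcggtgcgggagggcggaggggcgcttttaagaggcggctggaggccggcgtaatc
Slc38a2, chr15:96699729-96699978, minus strand: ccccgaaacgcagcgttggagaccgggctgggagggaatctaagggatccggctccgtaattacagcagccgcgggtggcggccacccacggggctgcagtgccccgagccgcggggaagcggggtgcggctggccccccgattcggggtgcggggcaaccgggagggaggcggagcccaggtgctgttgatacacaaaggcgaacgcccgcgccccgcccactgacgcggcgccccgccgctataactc
Slc38a4, chr15:97055957-97056206, minus strand: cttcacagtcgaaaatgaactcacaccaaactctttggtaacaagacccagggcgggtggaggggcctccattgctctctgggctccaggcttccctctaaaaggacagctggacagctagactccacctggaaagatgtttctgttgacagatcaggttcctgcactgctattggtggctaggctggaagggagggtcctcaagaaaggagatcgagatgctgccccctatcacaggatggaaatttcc
The E-box of Slc43a1 spans bases 64 to 59 before its start, and 6.02% of 32851 mouse promoters of this length hold that motif. On both strands, the searched letters were also TGATGNAA, the core of the amino acid response element (3.45% of promoters), TGACGTCA (1.55%), the FOXO motif TTGTTTAC (1.07%) and the STAT5 motif TTCNNNGAA (7.02%). These letters do not occur in the windows of the 8 members. Sequence outside these windows, introns among it, was not searched, so their absence from the genes was not shown. G and C made up 70.8% of the bases for Slc43a1, 64.4% for Slc16a10, 72.0% for Slc38a2 and 52.8% for Slc38a4. The promoters of Slc3a2 and Slc25a47, which also rose over both days, had 53.6% and 54.4%, that of Slc6a13 60.8% and that of Slc3a1 45.6%, where the median of all promoters was 52.4%. The RefSeq start of Slc38a2 lies 30 bases from that of the table, and Slc38a4 has 3 promoter entries, of which the one at the deposited start is printed.

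Both facilitative carriers rose on both days. Slc43a1 (LAT3; NM_024497, chr2:84840323-84863586, mm10) carries branched-chain and other large neutral amino acids. At day 25 it stood at 2.72, 2.90 and 2.65 FPKM in Con mice and at 6.67, 5.96 and 4.64 in CR mice. At day 30 the values were 1.84, 2.42 and 3.63 FPKM in Con and 4.77, 4.93 and 5.49 in CR mice. Every CR mouse was above every Con mouse of either day. The ratio of means was 2.09 at day 25 and 1.92 at day 30. On the log2(FPKM + 1) scale, which understates changes of low genes, Slc43a1 rose by 0.84 (SE 0.158, limma adjusted p = 0.00766) at day 25 and by 0.77 (SE 0.158, limma adjusted p = 0.00677) at day 30. These values rest on 91 to 342 reads per library.

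Slc16a10 (TAT1; NM_001114332, chr10:40033535-40142254) is a facilitative carrier of aromatic amino acids. It was at 20.2, 21.9 and 19.2 FPKM in the Con mice of day 25, and at 34.0, 24.8 and 37.8 in the CR mice. The Con mice of day 30 gave 16.9, 17.8 and 20.4 FPKM, and the CR mice 30.1, 28.6 and 36.3. Again no CR mouse overlapped with a Con mouse. Slc16a10 rose by 0.61 (SE 0.147, limma adjusted p = 0.0227) at day 25 and by 0.75 (SE 0.147, limma adjusted p = 0.00529) at day 30, with a ratio of means of 1.65 over both days. Together with Slc38a2 these are the 3 of 10 members whose 6 CR and 6 Con mice did not overlap, all of them higher in CR, while 3.82% of all tested genes were higher in that way. By day, 4 of 10 members were higher without overlap at day 25 and 6 of 10 at day 30, against 10.2% and 12.1% of all genes.

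The sodium-coupled carriers of the Slc38 family differed among themselves. Slc38a2 (SNAT2; NM_175121, chr15:96687392-96699698) takes up small neutral amino acids such as alanine and is known to be induced when amino acids are scarce. Its level was 31.4, 35.5 and 34.8 FPKM in Con and 58.8, 58.1 and 44.7 in CR mice at day 25. By day 30 it was 27.8, 35.1 and 33.1 in Con and 36.3, 38.0 and 49.2 in CR mice. All CR values exceeded all Con values, with the smaller gap at day 30. Slc38a2 rose by 0.64 (SE 0.143, limma adjusted p = 0.0159) at day 25. At day 30 the log2 fold change was 0.35 (SE 0.143, limma adjusted p = 0.116), and the difference between the days was -0.30 (SE 0.203, limma adjusted p = 1.00), so a change of the CR effect with time was not shown. Over the alternatives the limma adjusted p at day 30 ran from 0.0602 (median-ratio scaling) to 0.326, and it was 0.0908 without the third CR mouse of day 25.

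Slc38a3 (SNAT3; NM_001199217, chr9:107651155-107667399) carries glutamine, asparagine and histidine, and can run in both directions. The Con mice had 388, 485 and 451 FPKM at day 25 and 523, 399 and 558 at day 30. The CR mice had 629.6, 687 and 477 FPKM at day 25 and 770.1, 658 and 665 at day 30. At day 25 the third CR mouse lay within the Con range, and at day 30 the diets did not overlap. Slc38a3 rose by 0.51 (SE 0.164, limma adjusted p = 0.0515) at day 30, a call that was lost without the first CR mouse of that day (adjusted p = 0.176) or 1 of the Con mice (adjusted p = 0.180, limma), or with no filter on low values (adjusted p = 0.102), within a range of 0.0251 to 0.180 over the alternatives. The log2 fold change at day 25 was 0.43 (SE 0.164, limma adjusted p = 0.128), and it was 0.0832 by limma in a fit blocked on mouse number and 0.0640 without the third CR mouse, within a range of 0.0640 to 0.319. Over both days Slc38a3 rose by 0.47 (SE 0.112, limma adjusted p = 0.00730).

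Slc38a4 (SNAT4; NM_027052, chr15:96994823-97055956) carries small neutral and also cationic amino acids. Con mice ranged from 312 to 358 FPKM at day 25 and from 328 to 390.1 at day 30, and CR mice from 314 to 387 and from 327 to 377. The diets overlapped on both days. Over both days the log2 fold change was 0.02 (95% interval -0.15 to 0.19, limma adjusted p = 0.870), and its sign turned with quantile normalization (-0.07) and with scaling to TPM (-0.01).

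Within this trio, Slc38a3 had a larger median share in CR than in Con mice on both days. The summed level of the 3 genes had a median of 832 FPKM in Con and 1059 in CR mice at day 25, and of 889 and 1091 at day 30. Slc38a3 made up a median of 53.5% of the sum in Con and 58.6% in CR mice at day 25, with overlapping ranges, and 56.9% and 62.0% at day 30, without overlap. The share of Slc38a4 was 42.4% and 36.0% at day 25, and 39.7% and 34.4% at day 30. Slc38a2 stayed the smallest of the 3, with medians of 4.13% and 5.47%, and 3.37% and 3.59%. These shares are descriptions without a test.

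**Figure D3:**
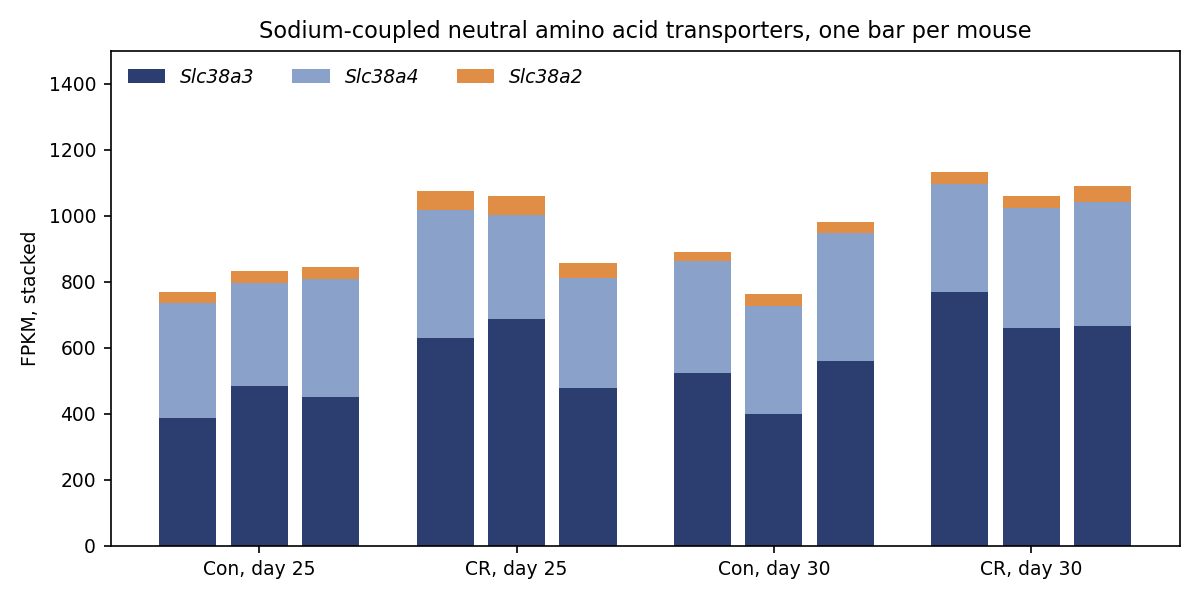
Stacked FPKM of Slc38a3, Slc38a4 and Slc38a2 in each of the 12 mice, grouped by diet and day (1 bar per mouse, axis from 0). The Slc38a3 segment reaches 658 to 770.1 FPKM in CR mice at day 30 and 399 to 558 in Con mice, whereas the Slc38a4 segment spans 312 to 390.1 FPKM over all 12 mice.

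The heavy chains were among the less abundant members, at the 76.0 (Slc3a1) and 68.7 (Slc3a2) percentile of tested genes. Slc3a2 (4F2hc, also CD98; NM_008577, chr19:8706882-8713897) pairs with several light chains. Con mice had 9.44, 12.3 and 10.7 FPKM at day 25 and 12.0, 10.5 and 11.3 at day 30. In CR mice it was at 12.7, 13.4 and 14.8 FPKM at day 25 and at 12.3, 12.3 and 12.4 at day 30. The diets did not overlap within either day, but the gap was narrow at day 30. Slc3a2 rose by 0.31 (SE 0.101, limma adjusted p = 0.0743) at day 25, while at day 30 the log2 fold change was 0.12 (SE 0.101, limma adjusted p = 0.448). The call at day 25 was lost without the second or the third CR mouse (limma adjusted p = 0.116 and 0.232) or without the first or the third Con mouse (limma adjusted p = 0.235 and 0.164), and in a fit of only those 2 groups (limma adjusted p = 0.168), within a range of 0.0343 to 0.235 over all alternatives. Over both days Slc3a2 rose by 0.21 (SE 0.0730, limma adjusted p = 0.0393).

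Slc3a1 (rBAT; NM_009205, chr17:85028347-85064241) is the heavy chain of the transporter for cystine and dibasic amino acids. It ranged from 12.3 to 15.8 FPKM in Con and from 14.6 to 16.5 in CR mice at day 25, and from 14.7 to 21.9 and from 14.4 to 19.9 at day 30. The diets overlapped on both days, and over both days the log2 fold change was 0.03 (95% interval -0.21 to 0.28, limma adjusted p = 0.854). Its value is uncertain, because 601 bases of its exons overlap those of Prepl on the opposite strand and strand use in the counting is not given.

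Light chains were scarce. Of the partners of Slc3a2, Slc7a7 (y+LAT1) and Slc7a10 (asc-1) were tested. Slc7a7 rose by 0.23 (SE 0.0761, limma adjusted p = 0.0370) over both days, from a mean of 0.925 FPKM in Con to 1.26 in CR mice. Slc7a10, named after its values were seen, lay between 0.950 and 1.65 FPKM in Con and between 0.929 and 1.84 in CR mice, with a log2 fold change of 0.09 (95% interval -0.13 to 0.31, limma adjusted p = 0.529) over both days. Slc7a5 (LAT1) reached 0.948 FPKM at most, Slc7a6 0.137 and Slc7a11 (xCT) 0.006. Slc7a8 (LAT2) lay between 0.413 and 0.630 FPKM in Con and between 0.136 and 0.383 in CR mice. Its diets did not overlap, with CR lower, but it was under the filter and was not tested. Slc7a9, the partner of Slc3a1, was met by 1 read in 1 of the 12 libraries.

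The cationic carrier Slc7a2 (CAT2; NM_007514, chr8:40862367-40922070) brings arginine, lysine and ornithine into the cell, arginine being the substrate of nitric oxide synthases. Its level was 139, 187 and 192 FPKM in Con and 258, 189 and 192 in CR mice at day 25. At day 30 it was 136, 149 and 190.0 FPKM in Con and 156, 176 and 189.7 in CR mice. The first CR mouse of day 25 stood above the rest, and the diets overlapped on both days. Over both days the log2 fold change was 0.22 (95% interval -0.03 to 0.48, limma adjusted p = 0.165). With median-ratio scaling the limma adjusted p was 0.0770, and without the third listed Con mouse of day 30 it was 0.0732, within a range of 0.0732 to 0.335 over the alternatives. A noncoding RNA on the opposite strand, Gm26584, overlaps 162 bases of its exons, so that their reads cannot be separated there.

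Slc6a13 (GAT2; NM_144512, chr6:121300296-121337718) takes up taurine and GABA. At day 25 Con mice had 74.3 to 82.1 FPKM and CR mice 62.9 to 91.1, a wider spread around the same level. At day 30 Con mice had 78.9 to 83.5 and CR mice 87.6 to 95.2 FPKM, without overlap. The log2 fold change was -0.03 (SE 0.121, limma adjusted p = 0.916) at day 25 and 0.19 (SE 0.121, limma adjusted p = 0.296) at day 30.

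Slc25a47 (NM_001012310, chr12:108851129-108856815) is a mitochondrial carrier found mainly in hepatocytes, whose substrate is debated, so that it is an amino acid transporter by its listing rather than by a settled function. Con mice had 203, 281 and 359.8 FPKM at day 25 and 347, 195 and 202 at day 30. CR mice had 303, 337 and 530.3 FPKM at day 25 and 361, 353 and 278 at day 30. The diets overlapped on both days, and the SE of the fold change was the largest among the 10 members. The log2 fold change was 0.47 (SE 0.270, limma adjusted p = 0.311) at day 25 and 0.46 (SE 0.270, limma adjusted p = 0.266) at day 30. In a fit blocked on mouse number Slc25a47 rose at day 25 (limma adjusted p = 0.0321, where the other alternatives reached 0.704). Over both days it rose by 0.46 (SE 0.184, limma adjusted p = 0.0723), but the limma adjusted p over the alternatives ran from 0.0258 to 0.158. The call was lost without the first Con mouse of day 25, either of 2 Con mice of day 30, the third CR mouse of day 25, or the first or second CR mouse of day 30, and also with quantile normalization or no filter. At day 30 the limma adjusted p was 0.0977 without the first listed Con mouse of that day.

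No member was shown to change between the days. The summed level of the 10 transporters was 1233.5 to 1515 FPKM in Con and 1722 to 1767 in CR mice at day 25, and 1229 to 1514 and 1727 to 1811 at day 30. By limma, 0 of 10 members differed between day 30 and day 25 in CR mice (0.321% of all genes did) and 0 of 10 in Con mice (0% of all genes), with 2 and 1 members at an unadjusted p under 0.05, where 8.66% and 7.22% of all genes were. The CR effect differed between days for 0 of 10 members by limma (0.00944% of all genes), with 0 at an unadjusted p under 0.05, where 3.46% of all genes were. Voom also called 0 members in each of the 3 comparisons.

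The wider family went both ways. Of 43 other amino acid transporters in the table, 26 were tested. At day 25, 3 rose and 4 fell, where 5.6% of all tested genes rose and 9.34% fell. At day 30, 4 rose and 4 fell, against 8.33% and 16.4% of all genes. The 7 calls of day 25 became 3 without the first Con mouse and 4 without the third CR mouse, and the 8 of day 30 became 5 without the first listed Con mouse. Over both days 10 rose and 5 fell, where 14.5% of all tested genes rose and 26.1% fell, and the median log2 fold change of the 26 was 0.08. The 10 include Slc1a5, which passed the filter only through CR mice. With limma 0 of the 26 met both thresholds on any comparison, while 12, 10 and 16 had an unadjusted p under 0.05 at day 25, at day 30 and over both days, against the shares of all genes given above.

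Mitochondrial carriers were higher in CR mice where they changed, and plasma membrane carriers mostly so. Those of the lysosome and other inner membranes were mostly lower where they changed. Of 9 tested mitochondrial carriers, 5 rose and 0 fell over both days, where 14.5% of all tested genes rose and 26.1% fell. By day, 0 of 9 rose at day 25 and 3 of 9 at day 30, against 5.6% and 8.33% of all genes, and 0 fell. Sfxn1, a mitochondrial serine transporter, went from 41.9 to 46.6 FPKM in Con to 50.3 to 63.6 in CR mice without overlap, and rose by 0.35 (SE 0.0668, limma adjusted p = 0.00171). Its relative Sfxn2 rose by 0.44 (SE 0.0957, limma adjusted p = 0.00413). The other 3 that rose over both days, named after their values were seen, were Slc25a29 (basic amino acids), Slc25a44 (branched-chain amino acids) and Slc25a13 (aspartate and glutamate), with log2 fold changes of 0.33, 0.23 and 0.16.

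Among 6 tested plasma membrane carriers, 3 rose and 1 fell over both days, against 14.5% and 26.1% of all tested genes. The glutamate transporter Slc1a2 rose by 0.47 (SE 0.118, limma adjusted p = 0.00989), from 25.0 to 34.7 FPKM. The glycine transporter Slc6a9 and the glutamine transporter Slc1a5, also named after their values were seen, rose by 0.59 and 0.29. Slc1a5 passed the filter only through CR mice, since Con mice reached 0.872 FPKM at most. Its place among the carriers that rose is therefore no support. By day, Slc6a9 and Slc1a2 rose at day 25 (limma adjusted p = 0.0347 and 0.0385) but did not pass at day 30 (limma adjusted p = 0.260 and 0.193). Slc1a5 passed on neither day (limma adjusted p = 0.121 and 0.125). The taurine transporter Slc6a6 fell by 0.54 (SE 0.109, limma adjusted p = 0.00272), with 19.6 to 26.3 FPKM in Con and 11.8 to 19.5 in CR mice and no overlap.

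Of 9 tested transporters of the lysosome and other inner membranes, 1 rose and 4 fell over both days, against 14.5% and 26.1% of all tested genes. Pqlc2, which exports cationic amino acids from lysosomes, fell by 0.67 (SE 0.0747, limma adjusted p = 4.93e-05). Its 6 CR mice had 2.76 to 4.30 FPKM and its 6 Con mice 4.97 to 6.84, without overlap. Slc36a1, a proton-coupled exporter of small neutral amino acids, fell by 0.44 (SE 0.0777, limma adjusted p = 0.00107), and Slc38a6 fell by 0.32 (SE 0.0730, limma adjusted p = 0.00541). Slc38a7, named after its values were seen, fell by 0.23. The exception was Slc15a4, the lysosomal carrier of histidine and peptides, which went from 5.38 to 8.50 FPKM in Con to 10.5 to 13.5 in CR mice and rose by 0.74 (SE 0.102, limma adjusted p = 2.01e-04).

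**Figure D4:**
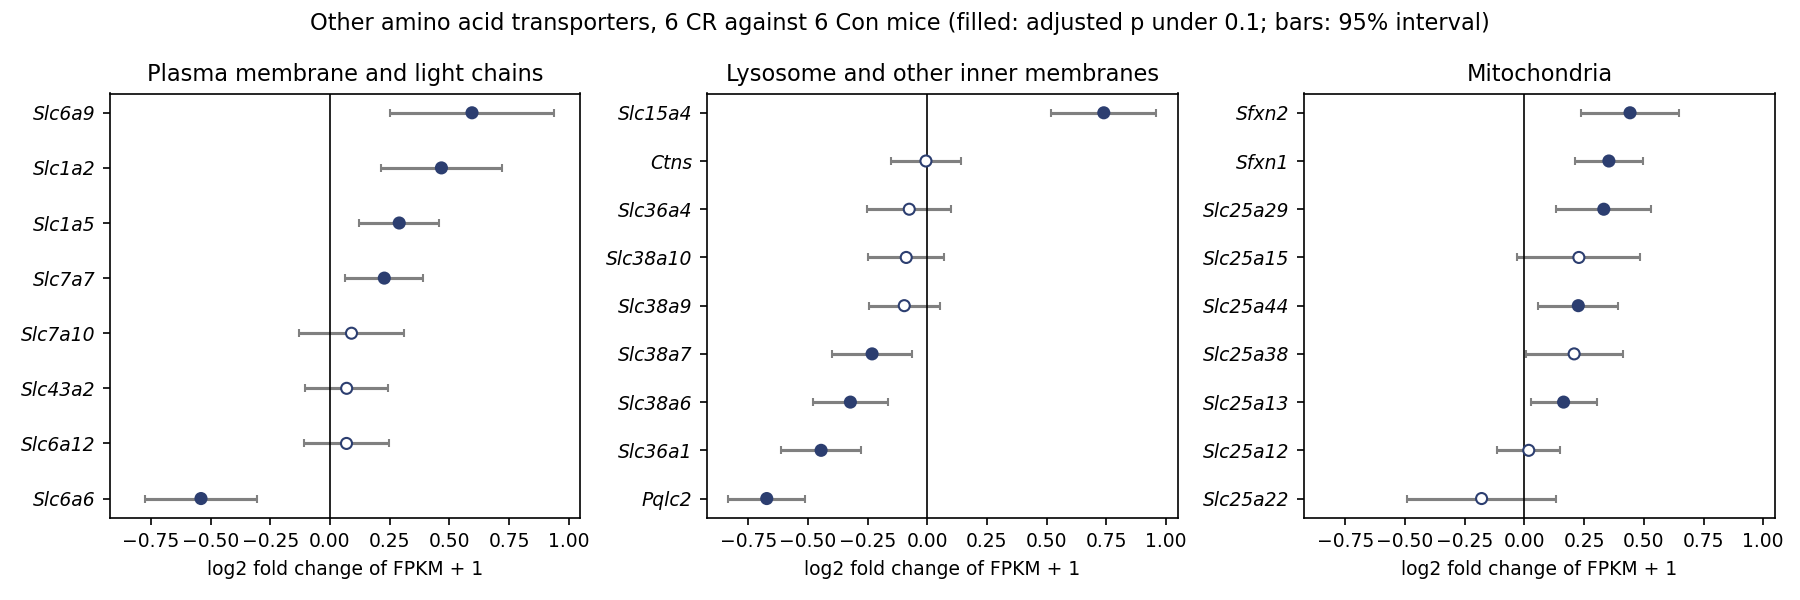
Log2 fold change of FPKM + 1 for the 26 other tested amino acid transporters, 6 CR against 6 Con mice with day as a covariate, by membrane (filled points, limma adjusted p under 0.1; bars, 95% intervals). The highest point is Slc15a4 at 0.74 and the lowest Pqlc2 at -0.67, both in the panel of the lysosome and other inner membranes.

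Slc38a2, Slc3a2 and Slc7a11 are known targets of the amino acid response, in which the factor ATF4 raises genes for amino acid uptake and synthesis when amino acids run short. Of 12 genes listed for that response, 10 were tested, and 3 rose and 2 fell over both days, where 14.5% of all tested genes rose and 26.1% fell. Atf4 itself, singled out for its role, was at 42.5 to 59.8 FPKM in Con and 46.6 to 59.2 in CR mice, with a log2 fold change of -0.07 (95% interval -0.27 to 0.13, limma adjusted p = 0.607). Atf5, a related factor, was the 1 gene past both thresholds and fell by 1.17 (SE 0.155, limma adjusted p = 1.48e-04), from 73.7 to 185 FPKM in Con to 41.7 to 70.1 in CR mice. The other 4, named after their values were seen, were Trib3, which fell by 0.71, and Vldlr, Sesn2 and Ddit3, which rose by 0.60, 0.47 and 0.28. Vldlr passed the filter only through CR mice, with 0.136 to 0.546 FPKM in Con and 0.774 to 1.82 in CR mice. Its place among the genes that rose is therefore no support.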

How the data were processed

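Liver RNA of 12 mice was sequenced by the authors as paired-end reads on 1 lane, converted with CASAVA 1.8.2, checked with FastQC and mapped to mm10 with BWA. Their methods name a count-based test. They deposited FPKM per gene, which the file headers trace to HOMER, counting exon reads over a single transcript of each gene and applying no scaling across libraries. BWA does not split reads over introns, which can lower the values of genes with short exons. Strand use is not given in the sources used here.

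Low values gave whole reads in 100% of cases (tolerance 0.1 read), which yielded the depths. Depth limits Slc43a1 and the light chains most. FPKM are not counts, so limma 3.58.1 (R 4.3.3) was run on log2(FPKM + 1) (4 groups in 1 model, empirical Bayes moderation with a trend, 2-sided) for 10593 genes with at least 1 FPKM in at least 3 libraries. The filter took all libraries together, so genes near 1 FPKM, such as Slc1a5 and Vldlr, could pass through the diet in which they were higher. Both days together were fitted with day as a covariate. The model was tested on simulated data. Adjusted p-values are Benjamini-Hochberg over all tested genes. Replicates are separate mice. Exact permutation of 3 against 3 mice cannot go below p = 0.1 and was not used.

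All 10 members are named. Of the other transporters, named were those past both thresholds, the 8 with the smallest adjusted p over both days and, as partners of the heavy chains, Slc7a5, Slc7a6, Slc7a7, Slc7a8, Slc7a9 and Slc7a11, and of the amino acid response list the genes past both thresholds. Members and lists were chosen with earlier results of these data known. Of the cell type markers, those of cholangiocytes, leukocytes and pancreas reached at most 2.15, 1.01 and 1.34 FPKM, and erythroid markers summed to 193 to 1107 FPKM. Of 44 other transporter symbols 43 were found, Pqlc2 under its older name, and of 9 hepatocyte markers 8.

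At day 25, same-numbered Con and CR libraries deviated together over genes (correlations of 0.106 to 0.368), so the block was fitted there. Its value is given where it changed the call of a transporter. The labels do not say what a number stands for. Con columns of day 30 carry no number. Promoter sequences came from RefSeq (GRCm38.p6). Alternatives were voom on recovered reads, other pseudocounts, filters and scalings, and leaving out each mouse. Tables were built in Python 3.11.15 (numpy 2.4.6, pandas 2.3.3) and plots in matplotlib 3.10.9.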

Additional observations from a re-analysis of the deposited data

How the results depend on the processing

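Slc43a1 and Slc16a10 rose at day 25, at day 30 and over both days under every alternative run. Among the alternative values of the members' log2 fold changes, 582 kept direction and side of the threshold, 16 lost the call, 12 gained it and 20 turned sign. The number of members past both thresholds at day 25 was 1 with a pseudocount of 0.1 and 1 with voom, and over both days 1 with voom. Members with an adjusted p under 0.1 numbered 3 to 6 at day 25, 2 to 4 at day 30 and 5 to 7 over both days. Other transporters at an adjusted p under 0.1 numbered 7 at day 25, 11 with median-ratio scaling and 3 to 8 with a mouse left out (3 without the first Con mouse and 4 without the third CR mouse of that day), and 8 at day 30, 5 to 8 with a mouse left out. Small effects turned sign. Slc38a4 came to -0.095 at day 25, -0.047 at day 30 and -0.071 over both days with quantile normalization, and to -0.016 and -0.0057 for the latter 2 with scaling to TPM. With a mouse left out it lay at -0.062 to 0.089, -0.031 to 0.094 and -0.017 to 0.054. Slc6a13 at day 25 was 0.019 with median-ratio scaling and -0.16 to 0.10 with a mouse left out. Slc3a1 with a mouse left out ran from -0.29 to 0.0028 at day 30 and from -0.026 to 0.10 over both days. The cause was not tested. Genes past both thresholds numbered 157, 234 and 176 (day 25, day 30, both days), and 302, 422 and 343 with voom.

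The replicate block at day 25 gave 6 members with an adjusted p under 0.1 (Slc38a3 and Slc25a47 in addition). Among the other transporters, Sfxn2 gained a call as higher in CR with the block (limma adjusted p = 0.0411, and 0.106 without). Slc38a6 lost its call as lower (limma adjusted p = 0.132, and 0.0744 without). Between the days of CR mice same-numbered libraries did not deviate together (mean correlation -0.0017), and the block called 0 members there.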
